A study of Mus musculus with 10 samples.

Results

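Neurog3 and 9 genes of the Notch pathway were followed through sorted delta, beta and alpha cells of the mouse islet. They are the factor Neurog3, the repressors Hes1 and Hes6, the ligands Dll1, Dll4, Jag1 and Jag2, the receptors Notch1 and Notch2, and the DNA-binding partner Rbpj. These 10 of the 19213 gene entries were taken by name from the deposited RPKM table (reads per kilobase of gene relative to the library's total). All 10 were present, and all 10 reached the level required for testing. They were chosen by their names with the RPKM values of the 3 cell types already known, so the levels by cell type are given as a description with no test.

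All cells came from adult mice carrying mIns1-H2b-mCherry, a nuclear red reporter under the mouse Ins1 promoter that marks beta cells, together with a floxed YFP allele. The YFP was switched on by Sst-Cre to mark delta cells or by Gcg-cre to mark alpha cells, and a reporter switched on by Cre stays on in the cell and its descendants. Beta cells were sorted from the same islets, and the labels do not say from which of the crosses each beta library came. Islets of 10 to 12 animals of 1 sex were pooled and kept overnight at 5.5 mM glucose before sorting. Delta cells gave 1 male and 1 female library (replicates 1 and 2), beta cells 2 male (replicates 1 and 3) and 3 female (2, 4 and 5), and alpha cells 2 male (1 and 2) and 1 female (3). Library totals recovered from the table ran from 16688097 to 26684086 reads. The labels do not state that the libraries come from different pools of animals, and p-values then reflect only library-to-library spread, some of which may be technical.

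Notch signalling passes between touching cells. A Delta-like or Jagged ligand on one cell binds a Notch receptor on the next, the receptor is cut, and its inner part joins RBPJ in the nucleus to switch on repressors such as Hes1. In the embryonic pancreas Hes1 holds down Neurog3, the basic helix-loop-helix (bHLH) factor that commits progenitors to an endocrine fate, while NEUROG3 in turn raises Delta-like ligands that signal to the neighbours. Neurog3 is best known as a transient embryonic transcript that is low in most mature islet cells.

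The promoters of Neurog3 and Dll4 are shown because these were the factor and the ligand with the largest excess in delta libraries. Each stretch holds the 250 bases before the annotated start, 5′ to 3′ on the gene's strand, from RefSeq on GRCm38.p6, at chr10:62132840-62133089 (+) and chr2:119325534-119325783 (+). Capitals mark matches on either strand to an E-box (CANNTG), the site of activating bHLH factors, to an N-box (CACNAG) or to a class C site (CACGNG), both known as sites of HES repressors, or to an RBPJ site (GTGGGAA).
Neurog3 promoter: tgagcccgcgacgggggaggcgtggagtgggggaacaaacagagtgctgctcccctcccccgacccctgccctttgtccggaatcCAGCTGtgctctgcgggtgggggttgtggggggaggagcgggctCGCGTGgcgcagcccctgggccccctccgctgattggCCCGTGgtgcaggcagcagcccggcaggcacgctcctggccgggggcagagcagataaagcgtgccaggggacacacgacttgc
Dll4 promoter: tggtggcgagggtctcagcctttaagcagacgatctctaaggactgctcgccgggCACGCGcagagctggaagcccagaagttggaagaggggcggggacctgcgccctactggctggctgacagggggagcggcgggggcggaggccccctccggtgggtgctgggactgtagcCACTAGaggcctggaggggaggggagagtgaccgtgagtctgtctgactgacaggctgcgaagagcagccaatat
The Neurog3 stretch held 1 E-box, CAGCTG, whose first base lies 165 bases before the start, and 2 class C matches, at 121 and 84 bases. It held no N-box and no RBPJ match. The Dll4 stretch held 1 N-box at 75 bases and 1 class C match at 195 bases, with no E-box and no RBPJ match. Among 32851 mouse promoter stretches of this length, 66.22% held an E-box, 23.51% a class C match, 36.67% an N-box and 5.415% an RBPJ match. A CACGAG counts as N-box and class C, and a CACGTG as class C and E-box. For 9 of the 10 genes, all but Hes1, the table gave 12 such stretches, and none of the 12 held an RBPJ match. Class C matches were in 7 of the 12, E-boxes in 7 and N-boxes in 4. A match is a string of letters and not a bound site.

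Neurog3 (chr10:62133090-62134763) separated delta cells from the rest by the widest margin of the 10. It stood at 58.8 and 59.7 RPKM in the delta libraries, or 1831 and 1706 recovered reads. Beta libraries gave 0.421, 0.266, 0.658, 0.307 and 0.608 RPKM, or 10 to 25 reads. Alpha libraries gave 1.95, 0.731 and 0.931 RPKM, or 50, 19 and 25 reads. The cell types did not overlap in any pair, and the order was delta, alpha, beta. Means were 59.2 ± 0.581 (SD, n = 2), 0.452 ± 0.176 (n = 5) and 1.20 ± 0.651 RPKM (n = 3), so that the delta mean was 131 times the beta mean and 49.3 times the alpha mean. On the scale of log2(RPKM + 1), delta lay 5.38 above beta and 4.81 above alpha, and alpha lay 0.57 above beta. Quantile normalization brought alpha and beta into overlap, with a difference of 0.39. Among the 12700 genes tested, the Neurog3 level stood at percentile 92.3 in delta, 10.4 in alpha and 5.1 in beta libraries. In bulk libraries, fewer cells of a type and less RNA per cell cannot be told apart.

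**Figure D1:**
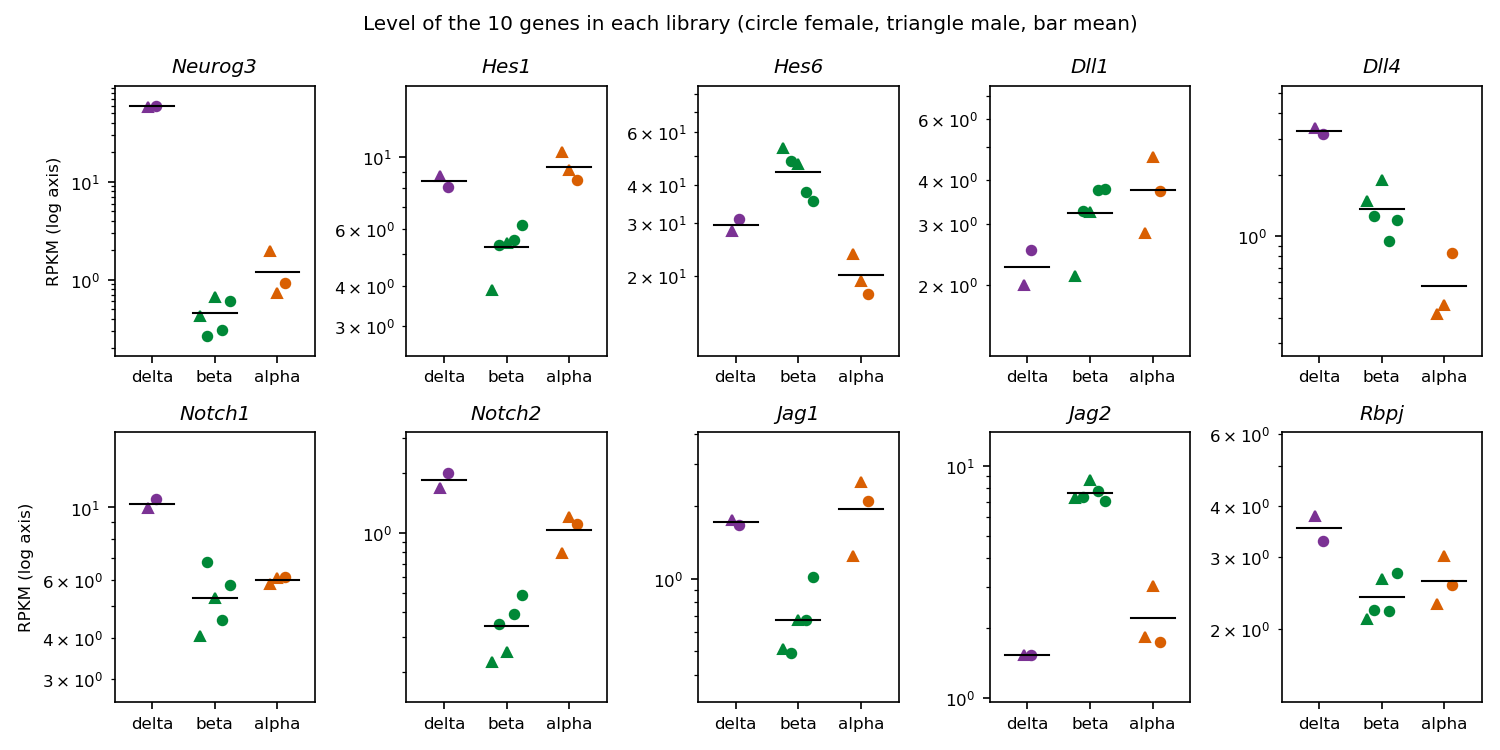
Level of each of the 10 genes in every library, in RPKM on a log axis whose range differs between panels, with circles for female and triangles for male libraries and a bar at the mean of the 2 delta, 5 beta and 3 alpha libraries. Neurog3 sits near 59.2 RPKM in delta and under 2 RPKM in every other library, and Jag2 is the panel in which beta stands furthest above the others.

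The Neurog3 reads in beta and alpha libraries were set beside other delta cell transcripts as a share of each gene's delta mean. Neurog3 stood at 0.711%, 0.449%, 1.11%, 0.519% and 1.03% of its delta mean in beta replicates 1 to 5, and at 3.28%, 1.23% and 1.57% in alpha replicates 1 to 3. Sst, which encodes somatostatin, the delta cell hormone, stood at 0.176%, 0.354%, 0.624%, 0.946% and 1.63% in the beta and at 5.19%, 1.91% and 2.60% in the alpha libraries. In alpha libraries the 2 genes kept nearly the same ratio, with 0.662, 0.677 and 0.633 RPKM of Neurog3 per 1000 RPKM of Sst, against 1.12 and 0.982 in delta libraries. In beta libraries that ratio spread from 0.574 in replicate 4 to 4.23 in replicate 1. Beta replicate 1 had the least Sst of all libraries and 17 Neurog3 reads. Hhex, a transcription factor of mature delta cells, averaged 0.618% of its delta mean in beta and 1.82% in alpha libraries. Ghsr, the ghrelin receptor, averaged 0.542% and 1.74%. Rbp4, a further listed delta cell marker, did not share the low alpha level. It averaged 1.16% in beta and 18.25% in alpha libraries, where it ran from 16.73% to 19.95%. Neurog3 averaged 0.763% and 2.03% on the same measure. Whether the low Neurog3 signal in beta and alpha libraries comes from delta cells or delta RNA in those sorts was not tested.

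**Figure D2:**
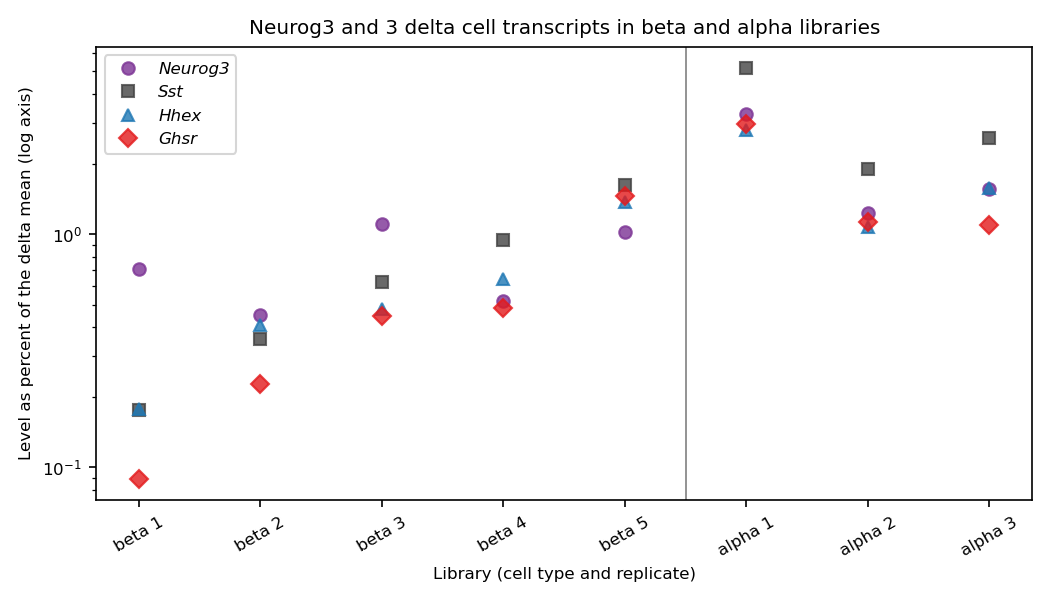
Neurog3 (circles), Sst (squares), Hhex (triangles) and Ghsr (diamonds) in each beta and alpha library as percent of the gene's mean over the 2 delta libraries, on a log axis, 1 column per library. In alpha libraries all 4 genes lie between 1.08% and 5.19%, and Neurog3 lies above the other 3 in beta replicates 1 to 3.

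Transcripts with a profile like that of Neurog3 were ranked by Pearson correlation of log2(RPKM + 1) over the 10 libraries, as a description. The same 2 delta libraries are the high points of each profile named here, and 702 of 12699 genes exceeded 0.9. The 8 most alike were Bmp3 (r = 0.9987), Ptprz1, Tagln3, Ghsr, Ankrd34b, Cacna1h, Ambp and Fstl5 (r = 0.9964). Bmp3, a secreted ligand of the bone morphogenetic protein family, had means of 42.4, 0.278 and 0.703 RPKM in delta, beta and alpha libraries. Ptprz1, a receptor tyrosine phosphatase, averaged 44.2, 0.235 and 0.739 RPKM in the same order. Cacna1h, a T-type calcium channel subunit, averaged 25.1, 0.182 and 0.549 RPKM. Those levels span a range close to that of Neurog3. Ambp, a secreted carrier precursor, was as close in shape at higher levels throughout, with 146, 11.3 and 16.4 RPKM. Hhex ranked 67 (r = 0.99) and Sst 409 (r = 0.937). None of the other 9 genes described here was among the 8.

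Hes1 (chr16:30064384-30067796), the main repressor that Notch switches on, was lowest in beta cells. Its level was 8.73 and 8.05 RPKM in delta, 3.89, 5.36, 5.43, 5.52 and 6.15 in beta, and 10.3, 9.10 and 8.46 in alpha libraries. Delta and alpha overlapped, and both lay above every beta library, by 0.59 and 0.72 on the log2 scale. After median-ratio scaling, quantile normalization or removal of 7 hormone genes from the totals, delta no longer overlapped alpha and lay lower by 0.42 to 0.47 log2 units. Leaving out delta replicate 1 or alpha replicate 3 also ended the overlap. Hes6 (chr1:91411483-91414038), a relative of Hes1 that is known to oppose it and to follow proneural factors, had the opposite order. It measured 28.2 and 30.9 RPKM in delta, 53.2, 48.0, 47.0, 37.9 and 35.5 in beta, and 23.6, 19.4 and 17.4 in alpha libraries. The 3 cell types did not overlap, with beta highest and alpha lowest, and delta lay 0.56 below beta and 0.54 above alpha. Each of the 3 other scalings brought delta and alpha into overlap, at a difference of 0.22. Hes1 made up 23.6% and 20.7% of the Hes1 and Hes6 RPKM in delta, 6.82% to 14.8% in beta and 30.4% to 32.7% in alpha libraries. That share did not overlap between any pair of cell types, and it does not depend on the scaling of a library by a single factor.

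Dll4 (chr2:119325784-119335962), a Delta-like ligand known also from the tips of growing vessels, was the ligand with the highest level in delta cells. It measured 3.38 and 3.15 RPKM in delta libraries, or 236 and 202 reads. Beta libraries gave 1.49, 1.26, 1.88, 0.948 and 1.20 RPKM, and alpha libraries 0.417, 0.464 and 0.831 RPKM, or 24 to 50 reads. None of the cell types overlapped, and the delta mean of 3.27 ± 0.164 RPKM was 2.41 times the beta and 5.73 times the alpha mean. Dll1 (chr17:15367354-15376872), a Delta-like ligand that NEUROG3 is known to raise in the embryo, did not share that pattern. It measured 1.99 and 2.51 RPKM in delta, 2.13, 3.27, 3.24, 3.74 and 3.77 in beta, and 2.81, 4.68 and 3.73 in alpha libraries. Delta lay below alpha by 0.53 log2 units and overlapped beta at a difference of -0.37, through beta replicate 1 alone. Without that library, without delta replicate 2 or with the 3 other scalings, delta Dll1 lay below beta with no overlap, by 0.47 to 0.82 log2 units.

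The Jagged ligands split between beta and the other cell types. Jag2 (chr12:112907819-112929776) was the beta cell ligand. It measured 7.23, 7.36, 8.70, 7.81 and 7.02 RPKM in beta, 1.53 and 1.53 in delta, and 1.83, 3.04 and 1.74 in alpha libraries. The 3 cell types did not overlap, and the beta mean of 7.62 ± 0.667 RPKM was 4.99 times the delta and 3.46 times the alpha mean. Jag1 (chr2:137081456-137116644), the ligand whose loss in people disturbs bile duct formation, ran the other way. It measured 1.76 and 1.68 RPKM in delta, 0.514, 0.492, 0.677, 0.674 and 1.02 in beta, and 1.24, 2.52 and 2.10 in alpha libraries. Every delta and alpha library exceeded every beta library, by means of 0.71 and 0.80 on the log2 scale, and delta overlapped alpha. Quantile normalization, or leaving out alpha replicate 1, placed delta below alpha with no overlap, by 0.38 and 0.28.

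Summed over the 4 ligands, RPKM came to 8.66 and 8.87 in delta, 11.4 to 14.5 in beta and 6.31, 10.7 and 8.40 in alpha libraries. The sums thus differed little between delta and alpha, while the ligand that dominated differed in each cell type. Jag2 made up 54.0% to 63.7% of the ligand RPKM in beta, 17.6% and 17.2% in delta and 20.7% to 29.1% in alpha libraries. Dll4 made up 39.1% and 35.5% in delta, 7.19% to 13.1% in beta and 4.33% to 9.89% in alpha libraries. Dll1 made up 44.6%, 43.7% and 44.4% in alpha, 23.0% and 28.3% in delta and 18.7% to 29.0% in beta libraries. Jag1 took 20.3% and 18.9% in delta, 3.97% to 7.82% in beta and 19.7% to 24.98% in alpha libraries. Thus Dll4 led in delta, Jag2 in beta and Dll1 in alpha cells.

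Both receptors were highest in delta cells. Notch1 (chr2:26457903-26516663) measured 9.97 and 10.6 RPKM in delta, 4.06, 6.83, 5.29, 4.53 and 5.78 in beta, and 5.84, 6.11 and 6.12 in alpha libraries. Delta lay above every other library, by 0.86 over beta and 0.68 over alpha on the log2 scale. Alpha and beta overlapped, through beta replicate 2 alone. Notch2 (chr3:98013527-98150361) was the receptor with the larger relative difference. It measured 1.69 and 2.01 RPKM in delta, 0.225, 0.351, 0.252, 0.393 and 0.489 in beta, and 0.793, 1.21 and 1.11 in alpha libraries, with 47 to 137 reads in beta. The 3 cell types did not overlap, and the delta mean of 1.85 ± 0.225 RPKM was 5.41 times the beta and 1.78 times the alpha mean. Notch1 supplied 84.1% to 85.5% of the RPKM of the 2 receptors in delta, 92.0% to 95.5% in beta and 83.4% to 88.0% in alpha libraries. Notch3 and Notch4, receptors best known from vessels, did not exceed 0.425 RPKM in any library.

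**Figure D3:**
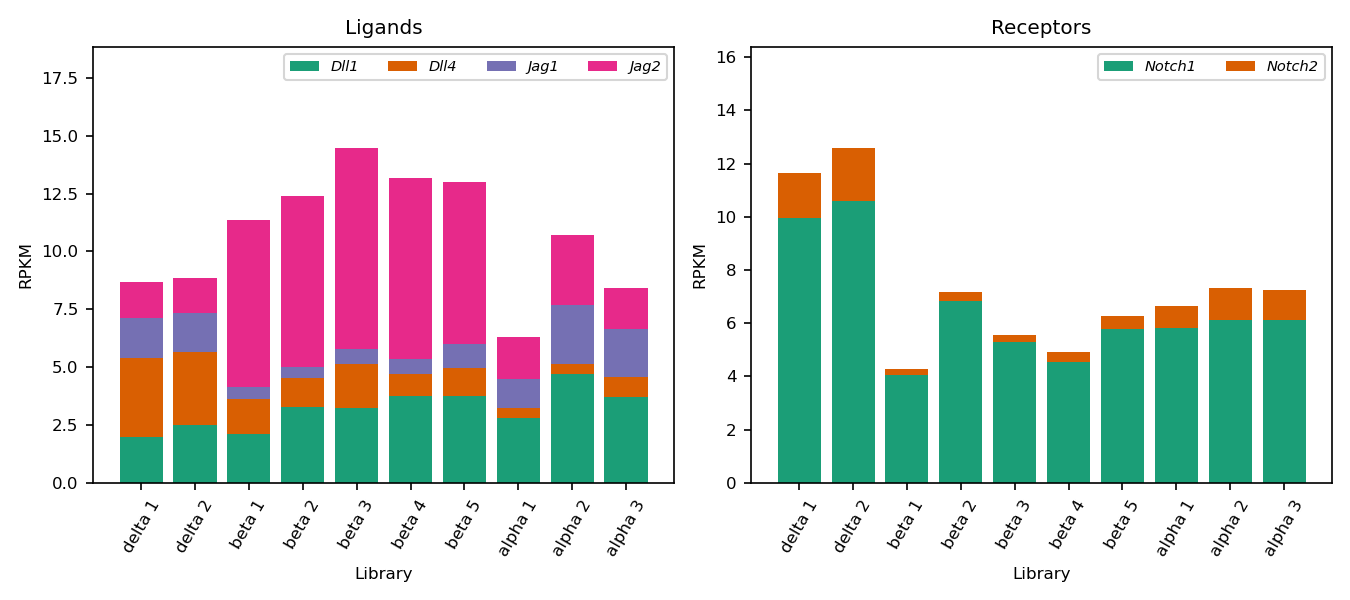
Stacked RPKM of the ligands Dll1, Dll4, Jag1 and Jag2 (left) and of the receptors Notch1 and Notch2 (right), 1 bar per library. Jag2 fills 54.0% to 63.7% of each beta bar on the left, and the 2 delta bars on the right, at 11.7 and 12.6 RPKM, are the tallest.

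Rbpj (chr5:53466152-53657362), through which all Notch receptors act on DNA, had the smallest range of the 10 genes, since its widest difference between cell types was 0.42 log2 units. It measured 3.78 and 3.29 RPKM in delta, 2.12, 2.24, 2.65, 2.22 and 2.75 in beta, and 2.31, 3.02 and 2.56 in alpha libraries. Alpha and beta overlapped, and delta lay above both, by 0.42 over beta and 0.33 over alpha. The excess over alpha overlapped in each of the 3 other scalings, at 0.08, 0.01 and 0.08. Over beta it changed sign to -0.06 with overlap under quantile normalization. The Rbpj level stood at percentile 21.0 of all tested genes in delta, 21.5 in beta and 21.0 in the alpha libraries.

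Delta and beta libraries did not overlap for 9 of the 10 genes, of which 7 were higher and 2 lower in delta, against 62.8% of all tested genes without overlap. Alpha and beta did not overlap for 7, of which 4 were higher and 3 lower in alpha, against 50.0% of all tested genes. Delta and alpha did not overlap for 8, of which 6 were higher and 2 lower in delta, against 71.0%. The last count was 4 higher and 3 lower after median-ratio scaling or with hormone genes left out of the totals, and 4 higher and 4 lower after quantile normalization. For Neurog3, Hes6, Dll4, Notch2 and Jag2 all 3 cell types stood apart, which was so for 24.8% of tested genes. The pair of comparisons with beta share the beta libraries, and the genes were chosen with these levels known, so these counts describe the set only. The 10 genes also differed in level: within delta libraries they ran from Jag2 at 1.53 RPKM to Neurog3 at 59.2, and Neurog3 and Hes6 alone stood above percentile 50 there.

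Sex was not used to choose the genes and was tested with limma across all 12700 genes, with cell type as a term. None of the 10 genes passed an adjusted p under 0.05, and 0 of 10 had an unadjusted p under that value; over all genes, 6 (0.0472%) were called and 634 had an unadjusted p that low. Notch2 had the smallest unadjusted p of the 10, at 0.0996, with females 0.15 higher on the log2 scale (SE 0.08, adjusted p = 0.77). Hes6 lay 0.21 lower in females (female minus male -0.21, SE 0.11, adjusted p = 0.77) and Dll1 lay 0.23 higher (SE 0.14, adjusted p = 0.77). Neurog3 differed by -0.13 (SE 0.15, adjusted p = 0.81). Delta cells have 1 library per sex, and a sex difference within each cell type was not tested.

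Other genes of the pathway were taken from 8 lists with 102 names, of which 97 were in the table and 75 were tested. Like the 10 genes, the lists were chosen with earlier results of these data known. Their counts and adjusted p-values by cell type therefore describe the lists and are not independent support. With limma, delta exceeded beta libraries for 46 of the 75 and lay below them for 7 (median log2 fold change 0.58), against 37.4% higher and 13.3% lower of all tested genes (median 0.25). In alpha against beta, 29 were higher and 16 lower (median 0.26), against 23.7% and 30.3% of all tested genes (median -0.02). In delta against alpha, 22 were higher and 7 lower (median 0.30), against 32.1% and 5.89% (median 0.26). Over all genes, median-ratio scaling moved the median of delta minus beta from 0.25 to 0.01 and of delta minus alpha from 0.26 to -0.02, while alpha minus beta moved from -0.02 to 0.01. The share of higher genes among all called ones fell with it from 73.7% to 50.7% in delta against beta, and from 84.5% to 57.2% in delta against alpha. Quantile normalization gave 47.1% and 49%, and with hormone genes left out of the totals the share in alpha against beta rose from 43.9% to 54.7%. After median-ratio scaling the lists held 37 higher and 11 lower genes in delta against beta, and 10 higher genes in delta against alpha. Fits without delta replicate 1 or 2 keep 1 delta library. They called fewer genes in both delta comparisons, in the lists and over all tested genes alike.

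Among ligand-like proteins and the enzymes that act on ligand and receptor, Dlk1 and Neurl1a had the largest differences. Dlk1, a Delta-like protein that lacks the Notch-binding domain of the true ligands, measured 21.8 and 26.3 RPKM in delta, 0.721 to 3.69 in beta and 2.28 to 2.63 in alpha libraries. It rose by 3.23 log2 units over beta (SE 0.26, adjusted p = 1.02e-05) and by 2.81 over alpha (SE 0.28, adjusted p = 6.62e-05). Dner, a Notch-binding protein of neurons, was lower in delta than in beta (5.43 against 9.54 RPKM, adjusted p = 0.0107), a call that was lost without delta replicate 1 or 2 (adjusted p = 0.0511 and 0.119). Neurl1a, a ubiquitin ligase that helps ligands into the cell, measured 22.7 and 25.6 RPKM in delta, 3.03 to 5.97 in beta and 10.1 to 13.9 in alpha libraries. It rose over beta by 2.29 in delta (SE 0.21, adjusted p = 2.95e-05) and by 1.40 in alpha cells (SE 0.19, adjusted p = 0.000276). Over all tested genes, delta exceeded beta for 37.4% and lay below it for 13.3%, shares that stand beside the next 2 lists. Of the 7 genes tested for receptor glycosylation and ligand uptake, delta exceeded beta for 4 and lay below it for 0. That count was 1 after median-ratio scaling, with hormone genes left out of the totals or without delta replicate 1, and 2 without delta replicate 2, without the sex term or after quantile normalization. The lower count was 1 after median-ratio scaling, after quantile normalization or with no filter on low values, so that median-ratio scaling left 1 higher and 1 lower gene. Of 9 cleavage genes, delta exceeded beta for 2 and lay below it for 0, and 1 was higher in those 3 scalings, without delta replicate 1 or 2, or with only delta and beta libraries in the fit. The lower count of this list was 3 after quantile normalization and 1 in the other 2 scalings or without beta replicate 5, so that quantile normalization turned the balance to 1 higher and 3 lower. Ncstn, the nicastrin subunit of gamma-secretase, had means of 95.5, 57.3 and 59.8 RPKM in delta, beta and alpha libraries (delta minus beta 0.74, SE 0.09, adjusted p = 0.000221). Psen2, a presenilin, averaged 16.8, 20.6 and 13.0 RPKM in the same order and did not pass in delta against beta (adjusted p = 0.10). It passed there in the 3 other scalings (adjusted p = 0.0302 to 0.0389) and without beta replicate 5 (adjusted p = 0.0348), lower in delta each time.

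Nuclear partners of the Notch complex were the list with most genes called against beta. Against beta, 13 of the 17 tested were called higher and 2 lower in delta cells, and 10 higher and 4 lower in alpha cells. The shares over all tested genes were 37.4% higher and 13.3% lower in delta, and 23.7% and 30.3% in alpha cells. Against alpha, 5 were called higher and 0 lower in delta cells, beside 32.1% and 5.89% of all tested genes. Without delta replicate 1 the first of these counts was 7 higher and 1 lower. The 4 genes lower in alpha became 1 after quantile normalization, and 2 with hormone genes left out of the totals or without alpha replicate 2 or 3. The 5 genes higher in delta than in alpha became 2 in each of the 3 other scalings, without delta replicate 1 or without alpha replicate 3, and 3 with no filter on low values or without delta replicate 2, beta replicate 3 or 4, or alpha replicate 1. Maml2, a Mastermind coactivator that docks on the RBPJ complex, had means of 3.60, 0.312 and 3.11 RPKM in delta, beta and alpha libraries (delta minus beta 1.83, SE 0.11, adjusted p = 1.60e-06). Tle4 and Tle1, Groucho corepressors that HES proteins recruit, averaged 7.89 and 6.21 RPKM in delta, 1.66 and 2.71 in beta, and 3.05 and 5.92 in alpha libraries. Both rose over beta in delta cells (adjusted p = 2.64e-05 and 0.000102). Tle3, of the same family, fell by 0.77 in delta and by 1.41 in alpha relative to beta, with means of 16.3, 28.5 and 10.1 RPKM (adjusted p = 0.00203 and 1.84e-05). Aes, a short relative of these corepressors, averaged 255, 338 and 239 RPKM in delta, beta and alpha libraries and was called lower in delta (adjusted p = 0.0225), but not without delta replicate 1 (adjusted p = 0.261) or in a fit of delta and beta alone (adjusted p = 0.052).

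Classical Notch targets other than Hes1 were low everywhere. Hes5, Hey1, Hey2, Heyl and Nrarp did not exceed 0.468 RPKM in any library. Delta exceeded beta for 37.4% of all tested genes and lay below it for 13.3%. Of the 8 targets and modulators tested, delta exceeded beta for 5 and lay below it for 1. The higher count was 3 without delta replicate 1, and 2 without delta replicate 2 or after quantile normalization. The lower count was 2 after quantile normalization or with no filter on low values, and 0 without delta replicate 2. Dtx1, a Deltex ubiquitin ligase that binds the inner part of Notch, measured 6.50 and 6.16 RPKM in delta, 1.73 to 2.54 in beta and 0.849 to 0.957 in alpha libraries. It rose by 1.23 over beta (SE 0.13, adjusted p = 6.60e-05) and by 1.95 over alpha (SE 0.14, adjusted p = 8.69e-06), and was lower in alpha than in beta (-0.72, SE 0.12, adjusted p = 0.000762). Its cell type order of delta, beta, alpha was that of Dll4 and, among the 10 genes, of no other. Dtx3 had means of 51.3, 28.4 and 41.4 RPKM in delta, beta and alpha libraries (delta minus beta 0.84, adjusted p = 0.000165). Dtx2 averaged 3.58, 6.92 and 3.123 RPKM and was lower in delta than in beta (adjusted p = 0.00345), but not without delta replicate 2 (adjusted p = 0.0545).

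Factors known to act after NEUROG3 moved in both directions. Against beta, 9 of the 17 tested were called higher and 3 lower in delta cells, and 8 higher and 3 lower in alpha cells. The shares over all tested genes were 37.4% higher and 13.3% lower in delta, and 23.7% and 30.3% in alpha cells. For delta against alpha they were 32.1% higher and 5.89% lower. Without delta replicate 1 the first count was 5 higher. In delta against alpha, 3 were higher and 4 lower, the latter count being 7 or 8 in the 3 other scalings and 2 without delta replicate 2. Fev, a factor of serotonin neurons that endocrine progenitors also express, measured 22.1 and 23.9 RPKM in delta, 0.664 to 1.06 in beta and 21.9 to 24.8 in alpha libraries (3.64 over beta in delta and in alpha, adjusted p = 5.49e-08 and 2.90e-08). Isl1, a LIM factor of islet cells, averaged 178, 41.5 and 79.0 RPKM in delta, beta and alpha libraries (delta minus beta 2.11, adjusted p = 2.05e-05). Neurod1, the bHLH factor that NEUROG3 is known to switch on directly, averaged 54.7, 75.6 and 104 RPKM and did not pass in delta against beta (adjusted p = 0.21), though it passed as lower in delta after median-ratio scaling (adjusted p = 0.0158) and with hormone genes left out of the totals (adjusted p = 0.0328). Insm1, a zinc finger target of NEUROG3, averaged 96.5 and 103 RPKM in delta and beta libraries, which did not pass (adjusted p = 0.62), and fell to 48.2 RPKM in alpha libraries (alpha minus beta -1.06, SE 0.11, adjusted p = 6.73e-05). Gadd45a, a growth arrest gene, and Nkx2-2, an islet homeodomain factor, averaged 10.9 and 24.5 RPKM in delta and were lower there than in beta libraries (23.6 and 42.2 RPKM, adjusted p = 0.000152 and 0.000609), with 13.5 and 36.2 RPKM in alpha libraries. Pax4, a factor of developing beta and delta cells, averaged 0.0182 RPKM in delta libraries and was listed at 0 in all others.

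Alpha cell transcripts were also read in delta libraries, as a share of each gene's alpha mean. Gcg, which encodes glucagon, stood at 8.72% and Irx1, an alpha cell homeodomain factor, at 12.5%. Fev stood at 99.6%, Gata6 at 107% and Prox1 at 140% on the same measure. How much of the Gcg and Irx1 signal in delta libraries comes from alpha cells was not tested. Ppy and Pyy, transcripts of pancreatic polypeptide cells, were also high in delta libraries, averaging 17550 and 26930 RPKM. They averaged 608 and 426 RPKM in beta and 5268 and 6607 in alpha libraries. Sertm1, the other listed marker of these cells, averaged 1.79, 0.0506 and 7.02 RPKM in delta, beta and alpha libraries. Its delta level lay below every alpha library.

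Among the progenitor factors, Sox9 was called higher in delta than in both other cell types. This factor, which Notch signalling is known to sustain in pancreatic progenitors and ducts, measured 2.97 and 4.04 RPKM in delta, 0.00987 to 0.235 in beta and 0.125 to 0.173 in alpha libraries. It rose by 2.02 over beta (SE 0.13, adjusted p = 2.30e-06) and by 1.95 over alpha (SE 0.14, adjusted p = 8.00e-06). Ductal markers did not follow it as a list: the sum of 7 was 344 to 414 RPKM in delta, 548 to 715 in beta and 843 to 1951 in alpha libraries. The keratin Krt19 averaged 1.56 RPKM in delta against 7.73 in beta, while the duct channel Cftr averaged 0.290, 0.0199 and 0.0126 RPKM in delta, beta and alpha libraries. Gata6 and Prox1, factors of early pancreas, averaged 15.3 and 42.9 RPKM in delta, 2.57 and 9.89 in beta and 14.4 and 30.6 in alpha libraries, and rose over beta in delta (2.21 and 2.11, adjusted p = 1.41e-05 and 0.000145). Pdx1, needed for pancreas formation and beta cell function, averaged 74.1, 96.9 and 3.84 RPKM and was lower in alpha than in beta (-4.33, SE 0.16, adjusted p = 7.48e-08). In delta against beta it did not pass (adjusted p = 0.11), although it passed as lower in delta after median-ratio scaling (adjusted p = 0.0281), with hormone genes left out of the totals (adjusted p = 0.0306) and without alpha replicate 1 (adjusted p = 0.0465). Of all tested genes, 37.4% were called up in delta against beta and 13.3% were called down. Of the 7 progenitor factors tested, delta exceeded beta for 5 and lay below it for 0, with 3 higher after quantile normalization. Fits that keep 1 delta library called fewer of the 7 higher, as they did among all tested genes. In the settings where Pdx1 passed, the lower count was 1.

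Partners and inhibitors of bHLH factors were higher in delta than in beta for 7 of 8 tested genes, 4 of 8 without delta replicate 1, and 0 were lower, or 1 after quantile normalization. The shares over all tested genes in that comparison were 37.4% higher and 13.3% lower. Id proteins, which bind E proteins and keep bHLH factors such as NEUROG3 off DNA, did not peak in the same cell type. Id2 had means of 155, 48.2 and 71.4 RPKM in delta, beta and alpha libraries (delta minus beta 1.69, SE 0.19, adjusted p = 8.77e-05; delta minus alpha 1.08, SE 0.20, adjusted p = 0.00284). Id1 measured 8.00 and 9.05 RPKM in delta, 0.833 to 3.21 in beta and 61.4 to 70.8 in alpha libraries, and fell by 2.82 in delta relative to alpha (SE 0.31, adjusted p = 0.000115). Id3 followed Id1, with 27.1, 12.0 and 106 RPKM. Id4 averaged 6.07, 0.929 and 3.80 RPKM and rose over beta in delta (1.91, SE 0.16, adjusted p = 1.66e-05).

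**Figure D4:**
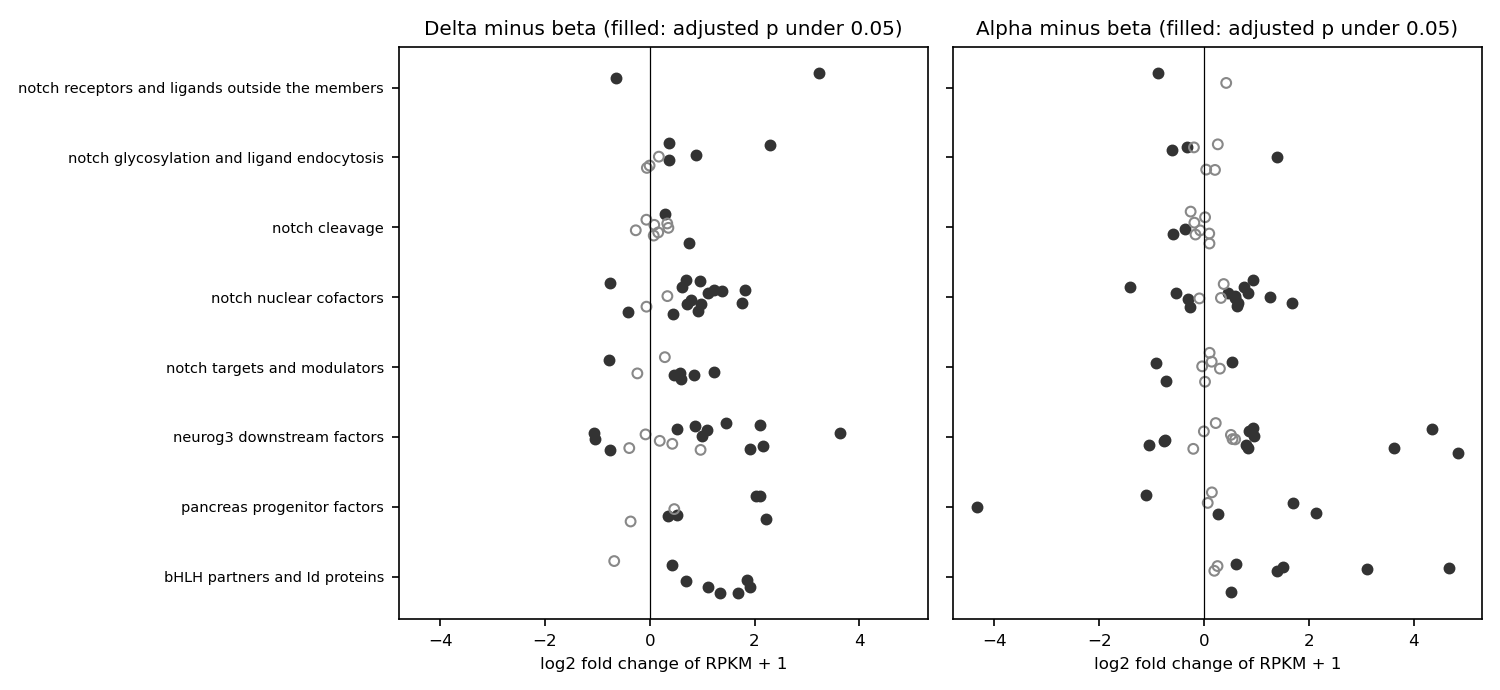
Log2 fold change of RPKM + 1 from limma for the 75 tested genes of 8 lists, delta minus beta (left) and alpha minus beta (right), 1 point per gene, filled where the adjusted p is under 0.05. Most filled points of nuclear cofactors and of bHLH partners and Id proteins lie right of 0 on the left, where 46 genes in all are higher and 7 lower, and Pdx1 is the point furthest left on the right, at -4.33.

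Several of the 10 genes are also expressed by vessels, mesenchyme and other cells near islets, and marker sums for those cells were read beside them. The sum of 10 endothelial markers was 11.9 and 15.8 RPKM in delta, 6.44 to 12.7 in beta and 8.18 to 11.3 in alpha libraries. It was higher in delta than in alpha, as Dll4 and Notch1 were. In each cell type 8 of the 10 averaged under 1 RPKM. The other 2, Esam and Egfl7, carried most of the sum and were higher in delta than in every beta and alpha library. Esam averaged 7.56, 3.87 and 6.12 RPKM in delta, beta and alpha libraries, and Egfl7 averaged 4.33, 1.55 and 1.08. The defining markers Pecam1, Cdh5 and Kdr averaged 0.750, 0.232 and 0.194 RPKM in delta, 0.637, 0.493 and 0.536 in beta, and 0.476, 0.345 and 0.545 in alpha libraries. Each of these 3 overlapped between delta and alpha. Stellate and mesenchymal markers summed to 1.09 to 1.35 RPKM in delta, 0.305 to 1.68 in beta and 3.59 to 4.42 in alpha libraries. Immune markers summed to 75.9 to 88.9, 107 to 201 and 23.0 to 41.5 RPKM in the same order. C1qa alone, at 57.7 and 73.5 RPKM, made up most of the delta sums. C1qb, Csf1r, Ptprc and Lyz2 averaged 0.0487, 0.0400, 0.00437 and 0 RPKM in delta, against 7.71, 1.35, 0.333 and 5.48 in beta libraries. Acinar markers summed to 644 to 817, 191 to 9485 and 81.4 to 2969 RPKM in delta, beta and alpha libraries. Schwann cell markers summed to 9.92 to 10.3 RPKM in delta, 2.23 to 2.89 in beta and 4.86 to 5.40 in alpha libraries, with Sox10, a defining one, at 0.00992 RPKM in delta. Markers of dividing cells summed to 0.806 to 1.07, 0.859 to 1.71 and 0.552 to 0.871 RPKM. What these cells add to the levels of the 10 genes was not tested.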

How the data were processed

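RNA libraries were made from sorted islet cells with the TruSeq RNA kit, version 2, per the labels' protocols. The authors deposited 1 table of RPKM values for 10 libraries. STAR 2.4, featureCounts, edgeR 3.12.0 and GRCm38.p3 are named in the submitters' processing notes, while the gene annotation and the handling of multiply mapped reads were not given in the sources used here. RPKM is a share of the library, and 7 hormone genes took 9.8% to 10.6% of delta, 17.6% to 31.8% of beta and 27.5% to 30.9% of alpha reads, which lowers all other genes to unequal degrees.

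Library totals and reads per gene were recovered from the steps of the RPKM values (tolerance 0.001 read), with gene lengths set so that values come out whole. The test was limma 3.58.1 (R 4.3.3) on log2(RPKM + 1), with cell type and sex as terms and a trend of variance with mean, for the 12700 genes that reached 1 RPKM in 2 or more libraries. The fit has 6 residual degrees of freedom, Benjamini-Hochberg adjustment runs over all genes tested, and genes with an adjusted p under 0.05 are called. Fold changes on this scale understate low genes. On simulated data for delta against beta (12700 genes), 78 of 100 genes changed by 1 log2 unit and 97 of 100 changed by 2 were recovered. The changed genes were drawn from those with a beta mean log2(RPKM + 1) over 1, and the noise was independent and normal. Recovery of lower genes was not simulated. Libraries of 1 cell type differed by a chi-square of 14.7 to 229 per gene, more than read counting alone gives, so none was taken as a repeat deposit of another. That does not show that they come from separate pools, and the titles of beta replicates 4 and 5 and of alpha replicates 1 and 2 differ only by a letter.

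The 10 genes and the gene lists were chosen with earlier results of these data known. Genes named from a list are up to 3 called ones with the smallest adjusted p in each contrast, up to 2 uncalled ones with the highest mean, and others with their level in all 3 cell types, and the 8 genes most like Neurog3. Coordinates of genes are 1-based and taken by symbol from GENCODE on GRCm38, and promoter sequences are from RefSeq on GRCm38.p6. Some genes of the lists are counted but not reported by name here.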

Additional observations from a re-analysis of the deposited data

How the results depend on the processing

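Counts of listed genes were recomputed with a pseudocount of 0.1, with no filter on low values, after median-ratio scaling, quantile normalization or removal of 7 hormone genes from the totals, without the sex term or the mean-variance trend, with only the 2 groups compared, and without each library. In delta against beta, the 7 lower genes became 11 after median-ratio scaling and 13 after quantile normalization. In delta against alpha, the 22 higher genes became 10, 14 and 11 after median-ratio scaling, quantile normalization and removal of hormone genes, and the 7 lower genes became 11 after quantile normalization. Leaving out each library gave 24 to 48 higher and 4 to 8 lower genes in delta against beta (24 without delta replicate 1, and 4 without delta replicate 2), 23 to 32 and 13 to 16 in alpha against beta, and 11 to 26 and 5 to 8 in delta against alpha (11 without delta replicate 1, and 14 without delta replicate 2). The number of the 10 genes called for sex was 0 in each case. The other counts over all 8 lists stayed within 1.5 times, whereas 90 counts of single lists moved by more and 774 did not. Of the differences that were called or without overlap, 3 changed sign, all under quantile normalization: Aph1b in delta against beta (-0.31, adjusted p = 0.0421), Ctbp1 in alpha against beta (0.12, adjusted p = 0.231) and Rbpj in delta minus beta (-0.056, with overlap). Among differences with overlap, Rbpj in alpha minus beta went from 0.095 to -0.062 under the same setting, and Jag1 in delta minus alpha from -0.096 to 0.043 without alpha replicate 2. The cause was not tested. With 1 delta library left, that library is assumed to vary like the other groups, and fewer of all tested genes were called as well. Of single listed genes, 3763 results stayed called or stayed uncalled, and the sign was compared only where a gene was called. Another 69 passed only under the alternative and 210 no longer passed. Depth limits Neurog3 in beta libraries, with 10 to 25 reads. No paired analysis was run, because the labels give no replicate numbers shared between groups. The title of every beta library carries a number next to that of a delta or alpha library of the same sex. The labels do not say that these share islets, and the p-values take no account of any such pairing.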
